A study of Mus musculus with 6 samples.

Results

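The imprinted Dlk1-Dio3 cluster is a chain of miRNA genes on mouse chromosome 12. Its members on the array were taken by number, from miR-127 to miR-1197, with every letter and arm; the rule itself uses no measured value. They are 100 of the 1881 miRNAs on the array. The samples were tumours of C57BL/6 mice inoculated in the right flank with 0.1 ml of Hepa1-6 cells, a mouse hepatoma line. In the GLE group, 3 mice received GLE, a treatment given in the labels under this abbreviation alone, at 0.023 g per day in total for a mouse of 10 g. In the model group, 3 mice received 0.2 ml of saline daily for 28 days. The labels give an age of 28 d for all 6 mice, every mouse carried the same tumour line, and no engineered allele is named. Each tumour was read on a separate one-colour (Cy3) miRNA array.

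Between 378 and 458 miRNAs of the whole array were detected per tumour, and the 75th percentile signal used for scaling ran from 203 to 364 intensity units. All 6 arrays lay on 1 slide and came from 1 scan, with the GLE arrays in slide row 1 and the model arrays in slide row 2, so slide row and treatment cannot be told apart. Of 6 hepatocyte miRNAs, miR-192-5p and miR-148a-3p were detected on 6 arrays, miR-194-5p on 5, miR-122-5p, the abundant miRNA of hepatocytes, on 2, and miR-122-3p and miR-802-5p on 0. Bulk tumour RNA was measured, so fewer cells of a type and less RNA per cell cannot be told apart.

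As background, genes of the Dlk1-Dio3 domain are expressed from 1 parental copy. The protein genes Dlk1, Rtl1 and Dio3 are read from the paternal chromosome, and the noncoding RNAs Meg3, Rian and Mirg, with the miRNAs processed from them, from the maternal one. The miRNAs are abundant in embryo, placenta and brain and low in adult liver, and raised levels have been described in a subset of hepatocellular carcinomas. An miRNA recognises its targets mainly through its seed, the bases 2 to 8 from its 5′ end.

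Sequences were matched by miRNA name to RefSeq (GRCm38.p6) for 96 of the 100 members. Of the 49 hairpins behind them, 48 lie on chromosome 12 between 109563692 and 109743795, a stretch of 180104 bases, 47 of them on the plus strand. The exception is Mir496b on chromosome 19, which the numbering rule takes in although it lies outside the domain, and its miRNA was detected on 0 arrays. Of the 12 members bright enough for testing, 11 had a RefSeq entry. They are shown in genomic order with the seed in capitals, since they carry every group comparison made here, and miR-487b-3p is the remaining tested member.
miR-431-3p: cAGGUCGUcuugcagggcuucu
miR-127-3p: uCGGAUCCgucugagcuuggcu
miR-434-3p: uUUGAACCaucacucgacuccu
miR-341-3p: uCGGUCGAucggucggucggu
miR-370-3p: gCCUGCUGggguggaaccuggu
miR-379-5p: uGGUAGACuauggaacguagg
miR-299b-5p: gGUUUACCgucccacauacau
miR-494-3p: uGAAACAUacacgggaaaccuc
miR-300-3p: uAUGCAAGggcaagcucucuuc
miR-134-5p: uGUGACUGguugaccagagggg
miR-154-5p: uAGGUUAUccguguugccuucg

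These 11 miRNAs have 11 different seeds, so none of them shares a seed with another tested member of the cluster. Only 1 of the 11 seeds occurs elsewhere among the matched members, that of miR-379-5p, which miR-1193-5p also has, and miR-1193-5p was detected on 0 arrays. Among all 96 matched members there were 89 seeds, of which 7 were shared by a pair. Although they come from neighbouring hairpins, the tested miRNAs therefore do not form a seed family.

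Detection on an array required, for at least 1 probe of the miRNA, a share above 0.5 of its spots to be well above background. By this rule 21 of the 100 members were detected on at least 1 array, 8 of them on all 6 arrays, and 79 on 0 arrays. Among the 1781 other miRNAs on the array, 26.8% were detected at least once. The 21 comprised 8 of the 49 members named as 5p arms and 13 of the 50 named as 3p arms. Along the domain, detection covered 1 of 12 members on the Meg3 side (miR-337-3p), 5 of 10 in the group antisense to Rtl1, 2 of 4 from Rian, and 13 of 74 numbered with the long array that runs from miR-379 to miR-410. Well-known members of that array were dim. miR-376b-3p, miR-495-3p and miR-541-5p were detected on 0 arrays and miR-382-5p on 2.

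GLE replicate 3 showed the most members, with 20 detected. GLE replicates 1 and 2 showed 11 and 14, and model replicates 1, 2 and 3 showed 16, 9 and 13. The total of detected miRNAs did not run in this order, since model replicate 1 had the most, 458. Of the members, 5 were detected on a single array, and that array was GLE replicate 3 each time. Among the 1781 other miRNAs, 13, or 0.730%, were detected on that array alone. The 5 members, picked for being detected on this array alone, are shown with their seeds in capitals.
miR-337-3p: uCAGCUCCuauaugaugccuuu
miR-136-5p: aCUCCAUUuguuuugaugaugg
miR-411-5p: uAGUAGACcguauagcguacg
miR-377-3p: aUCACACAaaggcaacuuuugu
miR-410-3p: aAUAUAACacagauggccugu

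These 5 come from hairpins spread over the domain, from the Meg3 side to its far end. On GLE replicate 3 they stood at −3.69 (miR-337-3p), −3.46 (miR-136-5p), −3.43 (miR-411-5p), −3.88 (miR-377-3p) and −3.82 (miR-410-3p). These levels and all others below are log2 of the signal relative to the array's scaling percentile, with a floor at −4.26, under which no order is read. On the other arrays miR-337-3p, miR-377-3p, miR-410-3p and miR-411-5p were at the floor, and miR-136-5p was at −4.08 in GLE replicate 1, −4.21 in model replicate 3 and otherwise at the floor. miR-376c-3p and miR-382-5p were detected on GLE replicate 3 and model replicate 1, and miR-376a-3p on these and on GLE replicate 2. miR-433-5p was the only detected member missing from GLE replicate 3, and was seen on GLE replicate 2 and model replicates 1 and 3.

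**Figure D1:**
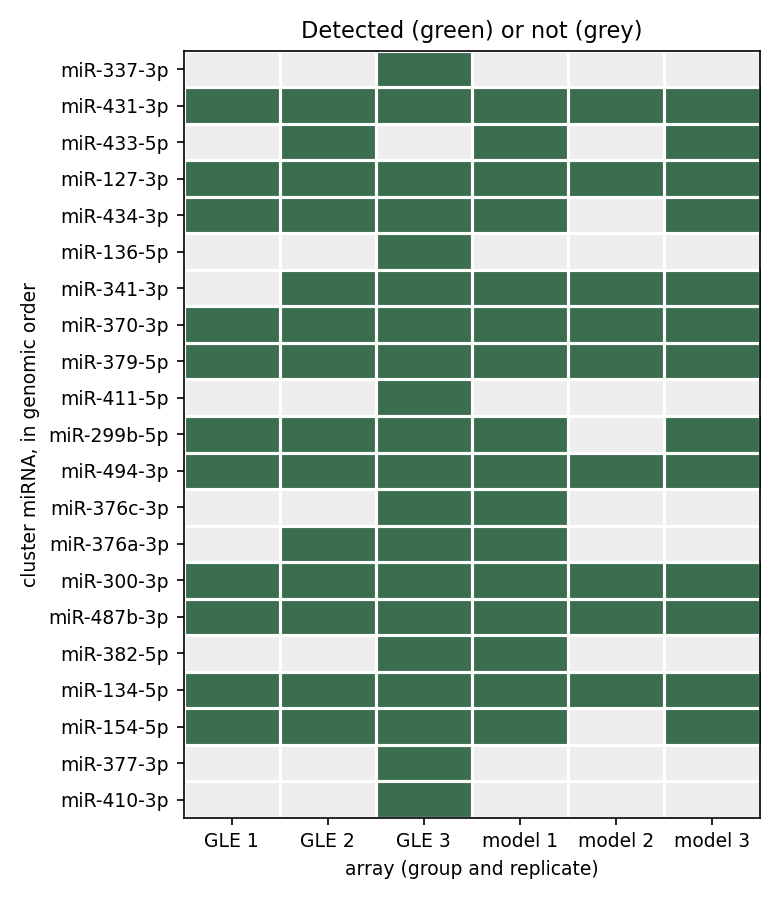
Detection of the 21 cluster miRNAs seen on at least 1 array, in genomic order from top to bottom, on the 6 arrays (columns, group and replicate). Green cells are detected and grey cells are not; GLE replicate 3 shows 20 of the 21, and model replicate 2 shows 9.

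The comparison of GLE with model tumours asked whether the treatment went with a different level of these miRNAs. To be tested, a member needed a probe that was detected throughout the 3 arrays of a group. The 12 that passed are only the brighter part of the cluster, and 4 of them passed through 1 group alone. miR-154-5p, miR-299b-5p and miR-434-3p were detected on all 3 GLE arrays and 2 model arrays, so they were eligible only through the group where they are higher, and miR-341-3p on 2 GLE arrays and all 3 model arrays. Of the 12, 9 lay higher in GLE tumours and 3 lower, with a median difference (GLE minus model) of 0.36 on the log2 scale. Among the 8 members with probes detected on all 6 arrays, 5 were higher and the median was 0.23. Over all 388 tested miRNAs the median was 0.0078 and 51.0% were higher. Of the 12, 0 passed limma's test (Benjamini-Hochberg adjusted p of 0.937 or higher), and of all 388, 0% passed. At an unadjusted p under 0.05 there were 0 members, against 1.55% of all tested miRNAs in limma's test. In 0 of the 12 did the groups not overlap, against 6.70% of all tested miRNAs. The limma 95% intervals reached a median of 0.79 to either side, so differences below about that size were not resolved with 3 arrays per group.

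In the group antisense to Rtl1, 3 members were tested. miR-127-3p, which is transcribed opposite the retrotransposon-derived gene Rtl1 and is fully complementary to its transcript, stood at −2.76, −3.54 and −1.90 in GLE replicates 1, 2 and 3 and at −3.24, −3.59 and −3.06 in model replicates 1, 2 and 3. GLE replicates 1 and 3 lay above all model tumours, and GLE replicate 2 lay within their range. The difference was 0.57 ± 0.40 (SE), a ratio of 1.48 with a 95% interval of 0.768 to 2.85 (limma adjusted p = 0.937). miR-434-3p, from the same antisense transcript, was at −3.10, −4.00 and −2.71 in GLE replicates 1 to 3 and at −3.85, −4.06 and −3.52 in model replicates 1 to 3. It repeated the order of miR-127-3p in all 6 tumours, with a difference of 0.54 ± 0.34 (limma adjusted p = 0.937).

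The third tested member of that group ran the other way. miR-431-3p was at −3.52, −3.17 and −3.76 in GLE replicates 1 to 3 and at −3.27, −3.34 and −3.21 in model replicates 1 to 3. GLE replicate 3, the highest array for its neighbours, was its lowest. The difference was −0.21 ± 0.20 (limma adjusted p = 0.937). Its 4 probes, which are lengths of 1 sequence and so not independent, gave differences of 1 sign, from −0.29 to −0.12. The difference was −0.069 without GLE replicate 3 and −0.019 with the floor raised by 1.

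Both tested members from Rian, the noncoding RNA that also carries box C/D snoRNAs, differed little. miR-370-3p was at −3.39, −3.63 and −3.10 in GLE replicates 1 to 3 and at −3.33, −3.19 and −3.41 in model replicates 1 to 3. The model values lay inside the range of the GLE values, and the difference was −0.065 ± 0.19, with a 95% interval of −0.52 to 0.39. miR-341-3p, a rodent miRNA, ranged from −4.26 to −3.50 in GLE tumours and from −4.09 to −3.67 in model tumours. The value of GLE replicate 2 was at the floor, so the low end of the GLE range is not measured. By the detection rule it was detected on GLE replicate 2 but not on GLE replicate 1, where its value was −3.92. The difference of miR-341-3p, 0.025 ± 0.24, had a 95% interval of −0.54 to 0.59. The sign of each changed under other scalings, that of miR-370-3p with no scaling between arrays and that of miR-341-3p with no scaling, with quantile normalisation and with the percentile over all probes.

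The array from miR-379 to miR-410, processed from Mirg, gave 7 tested members, 6 of them higher in GLE tumours. miR-379-5p, from the first hairpin of the array, was at −2.06, −2.69 and −1.27 in GLE replicates 1 to 3 and at −2.41, −2.87 and −2.47 in model replicates 1 to 3. Again GLE replicates 1 and 3 exceeded every model tumour while GLE replicate 2 did not, and the difference was 0.57 ± 0.36. miR-154-5p, for which the miR-154 family is named, was at −3.39, −4.23 and −2.47 in GLE replicates 1 to 3 and at −4.06, −4.26 and −3.84 in model replicates 1 to 3. The difference was 0.69 ± 0.42, the largest of the 12 but of a member eligible only through GLE tumours, a ratio of 1.61 with a 95% interval of 0.810 to 3.21. The value of model replicate 2 was at the floor, so the low end of its range is not measured.

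miR-299b-5p, likewise eligible only through GLE tumours, had the smallest unadjusted p of the 12 in limma's test (0.115). Its values were −3.09, −3.99 and −2.64 in GLE replicates 1 to 3 and −3.88, −3.98 and −3.69 in model replicates 1 to 3. The group means were −3.24 ± 0.69 in GLE and −3.85 ± 0.14 in model tumours (SD, n = 3), and the difference was 0.61 ± 0.34, a ratio of 1.53 with a 95% interval of 0.875 to 2.66. With array weights estimated by limma, which gave GLE replicate 2 the lowest weight of 0.222 and GLE replicate 1 the highest of 4.92, it was the only member called (0.77, limma adjusted p = 0.0447), and it has no value with probes detected on all 6 arrays. That fit called 4.90% of all tested miRNAs, and its weight estimation stopped before convergence. Under the other alternatives its adjusted p ran from 0.0618, without GLE replicate 2, to 1.00.

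The probes of miR-299b-5p also match a miRNA of the other strand. The hairpin of miR-299b is on the minus strand, opposite the hairpin of miR-299a, which is on the plus strand with the other members. The 2 mature sequences differ by 1 base at the 5′ end, and the probe covers the part they share. They are shown with the seed in capitals, followed by the probe that was used, 5′ to 3′, with the base that the shorter probe lacks in capitals.
miR-299a-5p (chr12:109710644-109710665, plus strand): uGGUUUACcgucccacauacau
miR-299b-5p (chr12:109710673-109710693, minus strand): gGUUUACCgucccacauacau
probe: atgtatgtgggacggtaaaC

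The array has no separate entry for miR-299a-5p, so signal from the pair cannot be told apart. No other detected member had a probe whose complement occurs in a second RefSeq miRNA. miR-300-3p ranged from −3.39 to −2.37 in GLE tumours and from −3.44 to −3.10 in model tumours, with a difference of 0.40 ± 0.28.

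The remaining 3 members were miR-494-3p, miR-134-5p and miR-487b-3p. miR-494-3p ranged from 3.24 to 4.33 in GLE tumours and from 3.15 to 3.59 in model tumours. Its difference was 0.32 ± 0.30, and it was 0.025 without GLE replicate 3. miR-134-5p, known for restraining dendritic spine growth in neurons, ranged from −3.39 to −1.68 in GLE tumours and from −2.92 to −2.37 in model tumours, so the GLE tumours enclosed the model tumours. Its difference of 0.13 ± 0.42 was −0.29 without GLE replicate 3. miR-487b-3p was at −1.86, −2.40 and −2.44 in GLE replicates 1 to 3 and at −2.25, −2.47 and −1.33 in model replicates 1 to 3. It was the member with its highest value in a model tumour, replicate 3, and its difference of −0.22 ± 0.33 was 0.12 without that tumour.

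**Figure D2:**
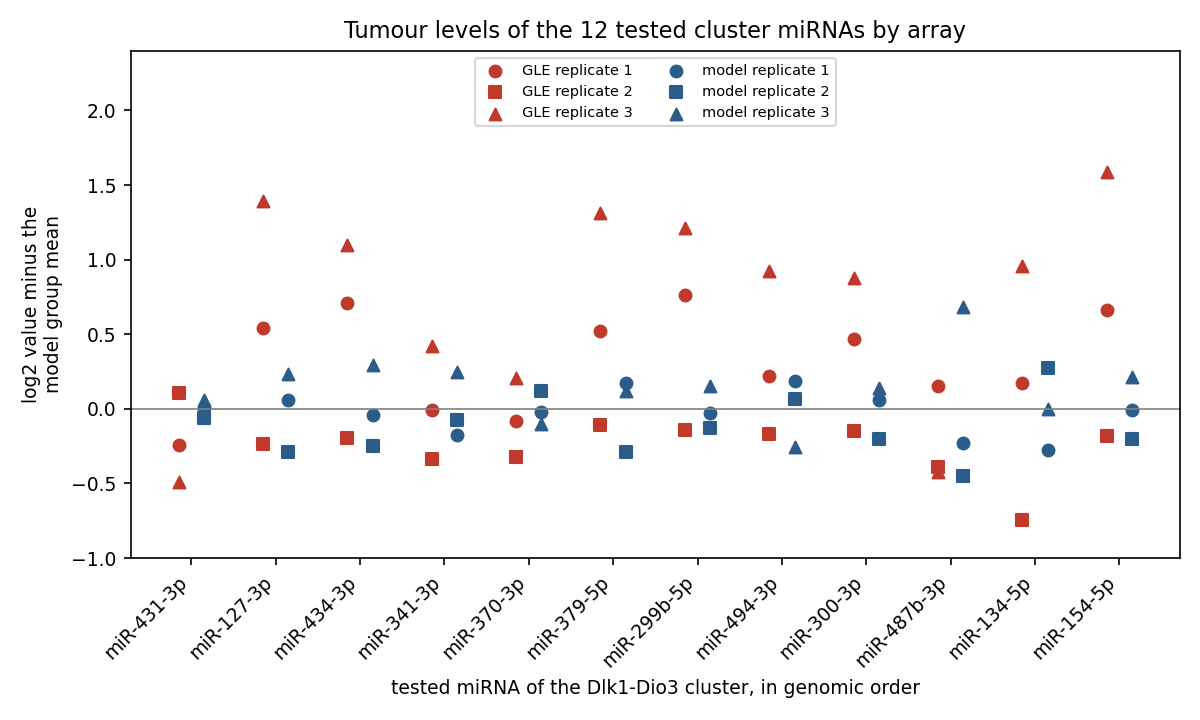
Level of each of the 12 tested cluster miRNAs on each array (log2, minus the mean of the model group), in genomic order from left to right. Red marks are GLE and blue marks are model tumours, with a marker shape per replicate number; GLE replicate 3 (red triangle) is highest for 10 of 12 miRNAs, and miR-431-3p and miR-487b-3p are the exceptions.

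**Figure D3:**
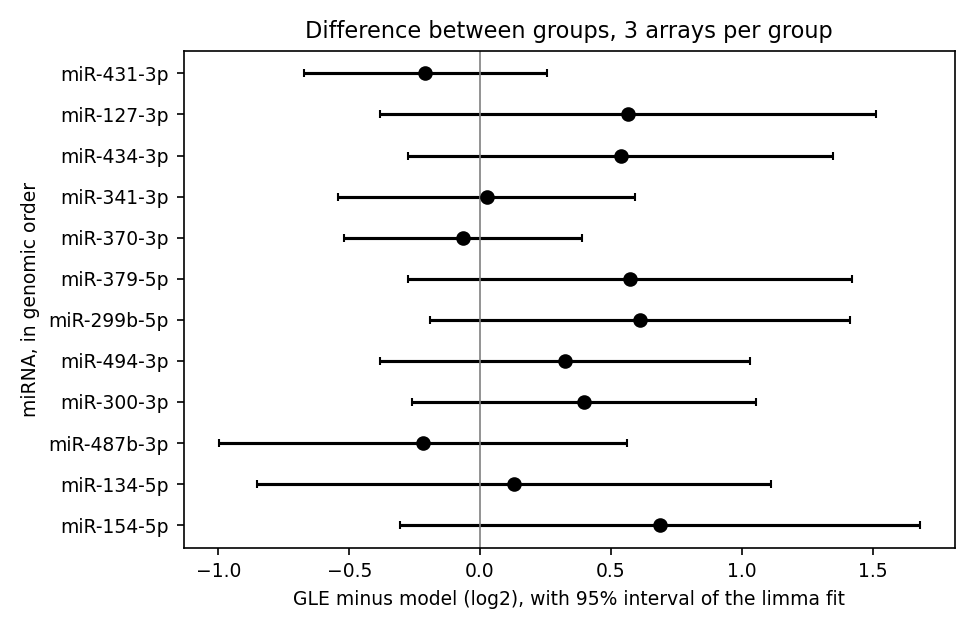
Difference between group means (GLE minus model, log2, 3 arrays per group) for the 12 tested cluster miRNAs in genomic order, with 95% intervals of the limma fit. Points run from −0.22 for miR-487b-3p to 0.69 for miR-154-5p, and every interval includes 0.

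The spread among GLE tumours was wider than among model tumours for most cluster members, as it was for most tested miRNAs. GLE replicate 3 had the highest value of the 6 arrays for 10 of the 12 members, against 29.5% of the other tested miRNAs. With all arrays kept, it was highest for between 8 and 10 of the 12 under every other scaling, background and floor setting and in the authors' deposited table. The value of GLE replicate 3 lay above the model range for 10 members and below it for 1. In GLE replicate 1 it lay above for 7, within for 4 and below for 1. GLE replicate 2 lay within the model range for 7, below it for 4 and above it for 1. The SD was larger in GLE than in model tumours for 11 of the 12 members, with a median ratio of 2.85, and for 76.5% of all tested miRNAs, with a median ratio of 2.00.

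These tumours set the size of the group difference. Without GLE replicate 3, 7 of the 12 differences were positive and their median was 0.088. Without GLE replicate 2, 10 were positive and the median was 0.62. In that fit 6 members had an unadjusted p under 0.05 in limma's test (miR-127-3p, miR-154-5p, miR-299b-5p, miR-300-3p, miR-379-5p and miR-434-3p), while 27.6% of all tested miRNAs did. Of the 6, miR-154-5p, miR-299b-5p and miR-434-3p are the members eligible only through GLE tumours. By adjusted p that fit called 0 members and 0.515% of all tested miRNAs. These 6 were picked by that fit, so the size of their differences in it is not read. Over the 12 members, the differences ran from −0.37 (miR-431-3p) to 1.12 (miR-154-5p) without GLE replicate 2. Without GLE replicate 3, they ran from −0.29 (miR-134-5p) to 0.31 (miR-299b-5p). With no scaling between arrays, the GLE and model values of 3 members did not overlap (miR-154-5p, miR-299b-5p and miR-434-3p), and those of 6.44% of all tested miRNAs did not. These are again the 3 members that passed only through GLE tumours, so nothing is read from their count.

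The fibroblast and mesenchymal list and the immune list, like the cluster, had their highest mean in GLE replicate 3. Of the fibroblast and mesenchymal list, 6 of 6 were tested and 5 were higher in GLE tumours, with 0 called and a median difference of 0.64. The exception was miR-145a-5p, at −0.026. Its mean level was −1.71, −2.43 and −1.01 in GLE replicates 1 to 3 and −2.28, −2.50 and −2.01 in model replicates 1 to 3. miR-127-3p, miR-154-5p, miR-300-3p and miR-434-3p had exactly this order of the 6 tumours. That is 4 of 12 members, and 7 of 370 other tested miRNAs had it. Of the list itself, 4 of 6 had this order, and the comparison was chosen after the values were seen. Among the cluster members with it, miR-154-5p and miR-434-3p were eligible only through GLE tumours. The last place of miR-154-5p, in model replicate 2, was at the floor. The members share a locus and the same arrays, so nothing is read from their count. The immune list, with 7 of 7 tested and positive (median 0.71, 0 called), had means of −0.16, −1.02 and 0.38 in GLE replicates 1 to 3 and of −1.14, −1.26 and −0.66 in model replicates 1 to 3. The part of these cells in the cluster's levels was not tested.

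The muscle and hepatocyte lists ran differently. The 4 muscle miRNAs, 3 of them positive, were highest in GLE replicate 1, at −0.075, and stood at −1.71 and −1.73 in GLE replicates 2 and 3 and from −2.38 to −1.11 in model tumours. The 3 tested hepatocyte miRNAs, 2 of them positive, had their highest mean in GLE replicate 2, at −0.29. Their mean was lowest in GLE replicate 3, at −2.98, close to model replicate 3, at −2.91, and the highest model mean was −1.62. By miRNA, only miR-148a-3p was lowest in GLE replicate 3 (−1.31). miR-192-5p (−3.69) and miR-194-5p (−4.26, the floor) were lowest in model replicate 3. Neuronal miRNAs were mostly not detected: 6 of 8 were detected on 0 arrays, miR-124-3p and miR-9-5p among them, and miR-128-3p was the one tested (0.25 ± 0.22). The endothelial miR-126a-3p was at 1.88, 1.52 and 2.00 in GLE replicates 1 to 3. Model replicates 1 to 3 stood at 1.44, 1.20 and 1.29. GLE replicate 3 was its highest tumour, as for the cluster mean. Its groups did not overlap, as for 6.70% of all tested miRNAs, and the difference was 0.49 ± 0.19 (limma adjusted p = 0.937). The 2 tested erythrocyte miRNAs, miR-451a and miR-486a-5p, were at −0.26 ± 0.56 and −0.30 ± 0.39. None of these lists had a member called in limma's test.

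**Figure D4:**
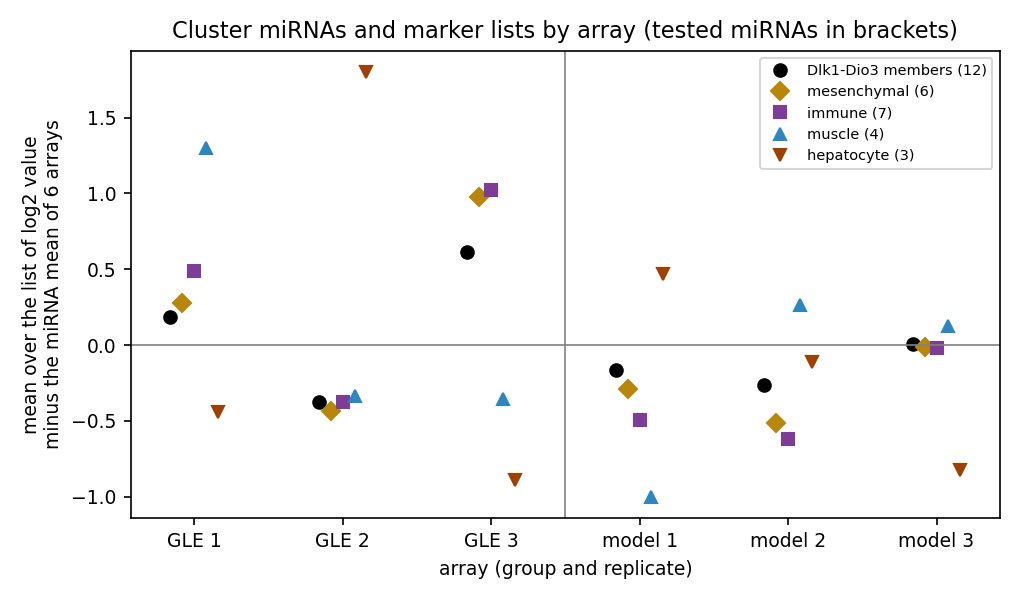
Mean over the tested miRNAs of each list (log2 value minus the mean of that miRNA over the 6 arrays), by array; the number of tested miRNAs stands in brackets in the key. The cluster (black circles) has its highest mean, 0.62, in GLE replicate 3 together with the mesenchymal (0.98) and immune (1.02) lists. The hepatocyte list is highest in GLE replicate 2 (1.80) and low in GLE replicate 3 (−0.89) and model replicate 3 (−0.82). The muscle list is highest in GLE replicate 1 (1.30).

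Detection also varied with probe length. Probes of a detected member start with the same bases at their 5′ end and differ in length. For 15 of the 21 detected members the longest probe was detected on more arrays than the shortest, for 6 on equally many, and for 0 on fewer. miR-379-5p is an example, with its probes shown 5′ to 3′ and the base that only the longer one has in capitals.
shorter probe, detected on 1 array: cctacgttccatagt
longer probe, detected on 6 arrays: cctacgttccatagtC

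The 6 members of largest difference were read by probes whose longest had 16 to 20 bases, and the other 6 by probes whose longest had 13 to 18 bases. Across the 12 members, the Spearman correlation of this length with the difference was 0.55, and across all 388 tested miRNAs, which share the same arrays, it was 0.13. The miRNA's GC content ran from 45.5% to 68.2% in the 11 members with a sequence, with a correlation of −0.57 with the difference, against −0.12 over 336 tested miRNAs with a sequence. The split by probe length was made after the values were seen, and these are descriptions of few miRNAs. The part of probe length or base composition in the differences was not tested.

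Further miRNAs of the same locus that the numbering leaves out (miR-432, miR-1188, miR-1247, miR-3070, miR-3071, miR-3072 and miR-3544) had 14 entries on the array. Of these 11 were detected on 0 arrays, and miR-3072-5p was the one tested. It was at −1.94, −2.36 and −1.56 in GLE replicates 1 to 3 and at −2.17, −1.98 and −1.97 in model replicates 1 to 3. GLE replicate 3 was again highest and GLE replicate 2 lowest, and the difference was 0.089 ± 0.23 (limma adjusted p = 0.958).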

How the data were processed

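Agilent Feature Extraction 10.7.1.1 wrote the scanner files, per the file headers and the submitters' processing notes. The deposited processed signal is an intensity on a linear scale from which background and a spatial trend were subtracted, per the file headers, with no normalisation between arrays. The authors also deposited a table on a log2 scale, by comparison with the arrays (rank correlation 0.963 to 0.973); its medians, −3.32 to −3.13, equal its lowest values. Its making and centring are unknown, and it served as an alternative.

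In R 4.3.3 with limma 3.58.1, outlier and control spots were left out, spots were averaged per probe, and signals were scaled within each array to the 75th percentile of 636 probes seen on every array, floored at −4.26 on the log2 scale and converted to log2. Probes detected throughout at least 1 group were averaged per miRNA. Groups were compared with lmFit and eBayes (two-sided, adjusted over 388 miRNAs, threshold 0.05), and the code was tested on simulated data. Each sample is labelled as a separate mouse. Saturated spots numbered 0, and arrays shared 0% of spot values. Every tested member may be named; 8 have all 6 values printed: 4 landmarks and the 4 of smallest p in each direction (3 below 0), which overlap. The rule for members uses no measured value, but the cluster and the lists were chosen with earlier results of these data known.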

Additional observations from a re-analysis of the deposited data

How the results depend on the processing

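Over 19 alternatives, 0 members and 0 of all tested miRNAs were called in most fits by limma, with 0 to 17 miRNAs at an unadjusted p under 0.05. The exceptions were array weights and the fit without GLE replicate 2. With array weights, 1 member and 19 miRNAs were called, and 117 miRNAs had an unadjusted p under 0.05 in limma's test. Without GLE replicate 2, 0 members and 2 miRNAs were called, and 107 had such an unadjusted p. The count of positive members was 5 of 8 with probes detected on all 6 arrays (median 0.23), 17 of 21 with probes detected on at least 1 array and 18 of 100 with no filter on dim probes, where most are at the floor. It was 7 to 10 of 12 without single arrays. The median difference ran from 0.088 to 0.62 without single arrays and was 0 with no filter. miR-341-3p was at −0.16 with the percentile over all probes, −0.16 with quantile normalisation, −0.0039 with no scaling and −0.20 in the authors' deposited table. miR-370-3p was at 0.010 with no scaling, 0.030 with the floor raised by 1 and 0.015 with the brightest probe. miR-487b-3p was at 0.14 with array weights. Without single arrays, miR-134-5p ran from −0.29 to 0.57, miR-341-3p from −0.17 to 0.21, miR-370-3p from −0.20 to 0.063 and miR-487b-3p from −0.44 to 0.12. The cause was not tested. The other 8 members kept their sign in every fit that tested them. The median of all tested miRNAs moved by less than 0.1 under each scaling, and the share of positive differences among them ran from 38.7% with the percentile over all probes to 64.9% with no scaling.

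Replicate numbers are shared between the groups and coincide with the slide column. Over all tested miRNAs, deviations of same-numbered arrays correlated at −0.62, −0.18 and 0.37. With 3 arrays per group, these values cannot decide whether the numbers pair the samples. With the replicate block, 0 members and 0 miRNAs were called by limma (17 miRNAs at an unadjusted p under 0.05), 9 members were positive and the median was 0.36. The block moved the SE of members in both directions, from 0.40 to 0.27 for miR-127-3p and from 0.19 to 0.24 for miR-370-3p. A slide or scan block could not be fitted, since all arrays share both. The number of arrays limits the precision.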

Other observations

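Other imprinted loci were read from 10 entries on the same arrays, for miR-296, miR-298, miR-335, miR-483 and miR-675. Of these 6 were detected on 0 arrays, both arms of miR-675 from the H19 transcript among them, and 3 were tested, with 0 called by limma. miR-296-5p, from the Gnas locus, was at −0.95, −1.99 and −0.081 in GLE replicates 1 to 3 and at −1.68, −1.58 and −1.35 in model replicates 1 to 3, a difference of 0.53 ± 0.45 (limma adjusted p = 0.937). As for most cluster members, GLE replicate 3 was its highest tumour. The arms of miR-483, which lies in an intron of Igf2, were at 0.11 ± 0.24 (miR-483-3p) and −0.14 ± 0.21 (miR-483-5p).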
